A study of Mus musculus with 8 samples.

Results

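The miR-30 family was followed through its 5 main arms, mmu-miR-30a-5p, mmu-miR-30b-5p, mmu-miR-30c-5p, mmu-miR-30d-5p and mmu-miR-30e-5p, which were found by name in each of the 5 deposited miRNA tables. They are 5 of the 1978 mature miRNAs in the count tables, 5 of 605 in the ATF4 table and 5 of 696 in the P19 table. Small RNA was sequenced from 8 libraries of mouse cell lines, 1 library per condition. C2C12 cells, a line of skeletal myoblasts, carried a control hairpin RNA (shNC) or a hairpin against Perk (shPerk) and were taken at day 0, before differentiation was induced, or at day 3 of differentiation. Another pair of C2C12 libraries came from cells with a vector or with ATF4 overexpression, for which the labels give no day. The paper reports growth medium, without induction of differentiation, for these cells. A pair of P19 libraries, from an embryonal carcinoma line, came from shNC and shPerk cells, with no day or induction state in the labels. Per the methods, the hairpins were delivered by lentivirus and the C2C12 lines were selected with puromycin, so both shNC and shPerk cells carried a hairpin vector. Whether a line is 1 clone or a pool is not given in the sources used here. The ATF4 coding sequence was expressed from a vector with an EF1α promoter. The mRNA of Perk and Atf4 is not measured by small RNA libraries, so neither the knockdown nor the overexpression could be checked here. The paper reports western blots for the knockdown in both lines and for the ATF4 overexpression.

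A miRNA is cut from a hairpin transcript by Drosha and Dicer, and either strand of the resulting duplex, the 5p or the 3p arm, can be loaded into Argonaute. Bases 2 to 8 of the loaded strand, the seed, pair with target mRNAs, and miRNAs with the same seed form a family. The miR-30 family is abundant in heart and skeletal muscle, and Ctgf, which encodes a matrix-associated growth factor, and Becn1, an autophagy gene, are known targets. PERK is a kinase of the endoplasmic reticulum that slows translation when unfolded proteins accumulate, and ATF4 is the transcription factor made in response. The comparisons ask which miRNAs differ when PERK is knocked down before and during myoblast differentiation, when ATF4 is overexpressed, and when PERK is knocked down in P19 cells.

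RefSeq sequences on GRCm38.p6 were matched for 3 of the 5 members. They are printed because the family is defined by the seed, and because the members are told apart by few bases outside it. Capitals mark bases 2 to 8.
miR-30a-5p: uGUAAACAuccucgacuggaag
miR-30c-5p: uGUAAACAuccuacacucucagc
miR-30e-5p: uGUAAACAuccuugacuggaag
miR-384-5p: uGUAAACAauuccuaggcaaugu
miR-30a-5p and miR-30e-5p have 22 bases each and differ at 1 of them, C13U, counted from 1 at the 5′ end, with the base of miR-30a-5p first. The first 12 bases of miR-30a-5p and miR-30c-5p are identical. Of 1679 mature mouse miRNA names in the RefSeq table, 4 have this seed: the 3 members shown and miR-384-5p. No sequence was matched there for miR-30b-5p and miR-30d-5p, so the search could not find them and their seed was not checked. How many mismatches were allowed, and how a read with several matches was counted, is not given in the sources used here, so how the reads of miR-30a-5p and miR-30e-5p were divided is uncertain.

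The hairpins lie in 3 pairs on GRCm38, by GENCODE release M21. Mir30a (chr1:23272269-23272339, plus strand) overlaps no other annotated gene. It lies 19361 bp from Mir30c-2 (chr1:23291701-23291784, plus strand), which falls in an exon of the lincRNA Gm27028. Mir30c-1 (chr4:120769534-120769622, minus strand) and Mir30e (chr4:120772606-120772697, minus strand) are 2983 bp apart, and both lie in introns of Nfyc, a subunit gene of the transcription factor NF-Y, on the same strand. Mir30e also overlaps Mir30f, an annotated miRNA gene on the opposite strand. Mir30b (chr15:68337415-68337510, minus strand) and Mir30d (chr15:68341208-68341289, minus strand) are 3697 bp apart, in exons of the non-coding transcripts Gm26621 for Mir30b, and Gm37296 and Gm20732 for Mir30d. The mature miR-30c-5p is made from hairpins on chromosomes 1 and 4, and its reads cannot be assigned to either. Its 3p arms can, since they differ at 3 positions, A9G, C12U and U22C, with the base of miR-30c-2-3p first. The differing bases are in capitals.
miR-30c-2-3p: cugggagaAggCuguuuacucU
miR-30c-1-3p: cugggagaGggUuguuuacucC
The 3p arms of Mir30a and Mir30e differ at 1 base, G18A, with the base of miR-30a-3p first, again in capitals.
miR-30a-3p: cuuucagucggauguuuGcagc
miR-30e-3p: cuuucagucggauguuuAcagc

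The 4 C2C12 hairpin libraries held between 8800977 and 11993448 reads on miRNAs. For the other 4 libraries the deposited values are RPM (reads on a miRNA scaled to the miRNA reads of the library), with values under 1 RPM listed at 0. Nearly all their low values were whole multiples of 1 read, which places their depth near 10.6 (vector), 12.2 (ATF4), 7.92 (P19 shNC) and 4.46 (P19 shPerk) reads per RPM. miR-21a-5p was the most abundant miRNA in every C2C12 library and miR-302b-3p in both P19 libraries. The muscle miRNAs miR-206-3p, miR-1a-3p, miR-133a-3p and miR-133b-3p were all above 0 in the 6 C2C12 libraries. Their lowest summed level there was 2467 RPM, in vector cells. In P19 cells 3 of these 4 were listed and above 0, at a summed 34.5 RPM (shNC) and 96.9 RPM (shPerk). The 6 embryonic-stem-cell miRNAs checked (miR-291a-3p, miR-294-3p, miR-295-3p, miR-302a-3p, miR-302b-3p and miR-302d-3p) were all above 0 in both P19 libraries. Their summed level was at most 0.265 counts-per-million (CPM) in a C2C12 hairpin library. Since each condition has 1 library, the differences have no check against replicates, and no p-value is given. Intervals are 95% intervals from the reads and cover counting error only. PCR copies are not independent molecules, so the intervals may be too narrow even for that error. In whole cultures, fewer cells of a type and less RNA per cell cannot be told apart.

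Together the 5 members took 2.55% of the miRNA reads in shNC cells at day 0 (95% Clopper-Pearson interval 2.54 to 2.56), 3.07% in shPerk cells at day 0 (3.06 to 3.08), 3.41% in shNC cells at day 3 (3.40 to 3.42) and 3.36% in shPerk cells at day 3 (3.35 to 3.38). Their share was 2.97% in vector cells, 3.32% in ATF4 cells, 2.31% in P19 shNC cells and 1.69% in P19 shPerk cells. The summed share was thus highest in the day 3 and ATF4 libraries and lowest in the P19 libraries. Tables were normalized separately, so levels are set side by side across tables with no test.

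The reads of miR-30d-5p numbered 108856 (shNC) and 105295 (shPerk) at day 0, and 107698 (shNC) and 160474 (shPerk) at day 3. Since the libraries differ in depth, reads alone do not give the direction of a difference. In CPM its level was 9615 (shNC) and 11964 (shPerk) at day 0, and 8980 (shNC) and 17021 (shPerk) at day 3. Its level was 9050 RPM in vector cells, 11222 RPM in ATF4 cells, 5804 RPM in P19 shNC cells and 4572 RPM in P19 shPerk cells. The day 3 shPerk library stood highest for this miRNA, at 17021 CPM.

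For miR-30a-5p the reads were 66499 (shNC) and 59951 (shPerk) at day 0, and 140590 (shNC) and 77500 (shPerk) at day 3. That is 5873 CPM (shNC) and 6812 CPM (shPerk) at day 0, and 11722 CPM (shNC) and 8220 CPM (shPerk) at day 3. In RPM it stood at 6125 in vector cells, 6719 in ATF4 cells, 1899 in P19 shNC cells and 2253 in P19 shPerk cells. Its highest level was in shNC cells at day 3, with 11722 CPM.

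miR-30c-5p, the product of both Mir30c genes, was counted 79916 times (shNC) and 78465 times (shPerk) at day 0, and 123728 times (shNC) and 59566 times (shPerk) at day 3. These reads were 7059 CPM (shNC) and 8915 CPM (shPerk) at day 0, and 10316 CPM (shNC) and 6318 CPM (shPerk) at day 3. miR-30c-5p had 12703 RPM in vector cells, 13411 RPM in ATF4 cells, 11741 RPM in P19 shNC cells and 6603 RPM in P19 shPerk cells. The day 3 shPerk library was its lowest among the 4 hairpin libraries of C2C12 cells, at 6318 CPM.

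The miR-30e-5p reads were 30307 (shNC) and 24357 (shPerk) at day 0, and 32348 (shNC) and 17718 (shPerk) at day 3, with 1531 RPM in vector cells, 1421 RPM in ATF4 cells, 2985 RPM in P19 shNC cells and 3067 RPM in P19 shPerk cells. miR-30b-5p was the rarest member in every library, with 3127 (shNC) and 2373 (shPerk) reads at day 0, 4345 (shNC) and 1873 (shPerk) reads at day 3, 304.5 RPM in vector cells, 428 RPM in ATF4 cells, 666 RPM in P19 shNC cells and 378 RPM in P19 shPerk cells. In CPM, miR-30e-5p stood at 2677 (shNC) and 2768 (shPerk) at day 0, and at 2697 (shNC) and 1879 (shPerk) at day 3. miR-30b-5p stood at 276 CPM (shNC) and 270 CPM (shPerk) at day 0, and at 362 CPM (shNC) and 199 CPM (shPerk) at day 3. Both members were at their lowest C2C12 hairpin level in shPerk cells at day 3.

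**Figure D1:**
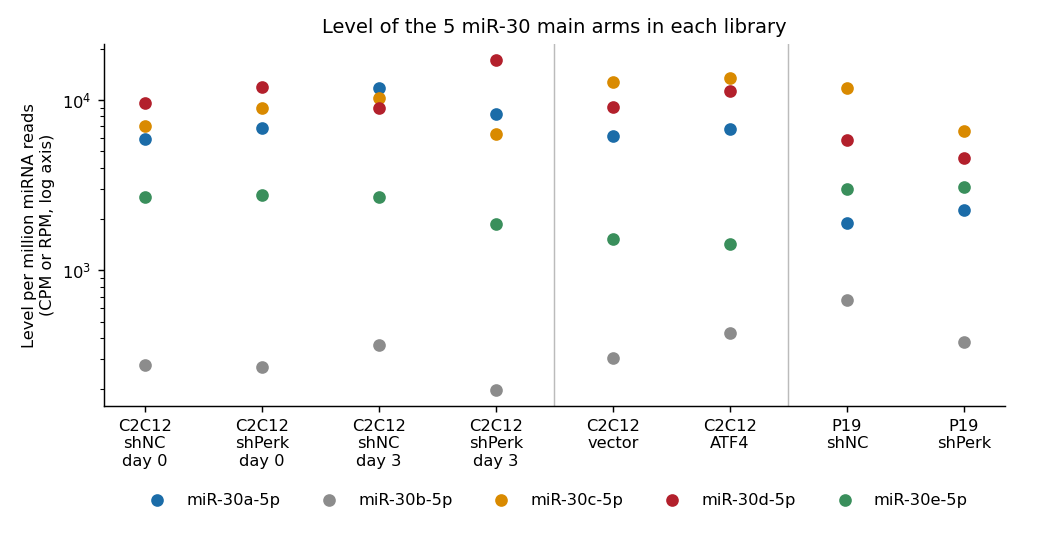
Level of each of the 5 main arms (points, 1 per library, CPM for the hairpin C2C12 libraries and RPM for the others, log axis) in the 8 libraries, with vertical lines between separately normalized tables. miR-30d-5p stands at 17021 CPM in shPerk cells at day 3, while miR-30b-5p is the lowest member in every library.

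The order of the members differed between the lines and conditions. At day 0 it was miR-30d-5p, miR-30c-5p, miR-30a-5p, miR-30e-5p and miR-30b-5p in both shNC and shPerk cells. In shNC cells at day 3 miR-30a-5p came first with 34.4% of the family's reads (34.3 to 34.5), ahead of miR-30c-5p with 30.3% (30.1 to 30.4) and miR-30d-5p with 26.4% (26.2 to 26.5). In shPerk cells at day 3 miR-30d-5p held 50.6% (50.4 to 50.8), miR-30a-5p 24.4% (24.3 to 24.6) and miR-30c-5p 18.8% (18.6 to 18.9). Neighbours in these orders lay outside each other's counting intervals, but no spread between replicates is known.

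miR-30c-5p led in the 4 RPM libraries, with 42.8% of the family in vector cells, 40.4% in ATF4 cells, 50.8% in P19 shNC cells and 39.1% in P19 shPerk cells, followed by miR-30d-5p. miR-30e-5p stood above miR-30a-5p only in the P19 libraries among these 8, with 12.9% against 8.22% in shNC cells and 18.2% against 13.4% in shPerk cells. An order of reads is not an order of molecules, since ligation and PCR can differ between sequences, which was not tested.

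**Figure D2:**
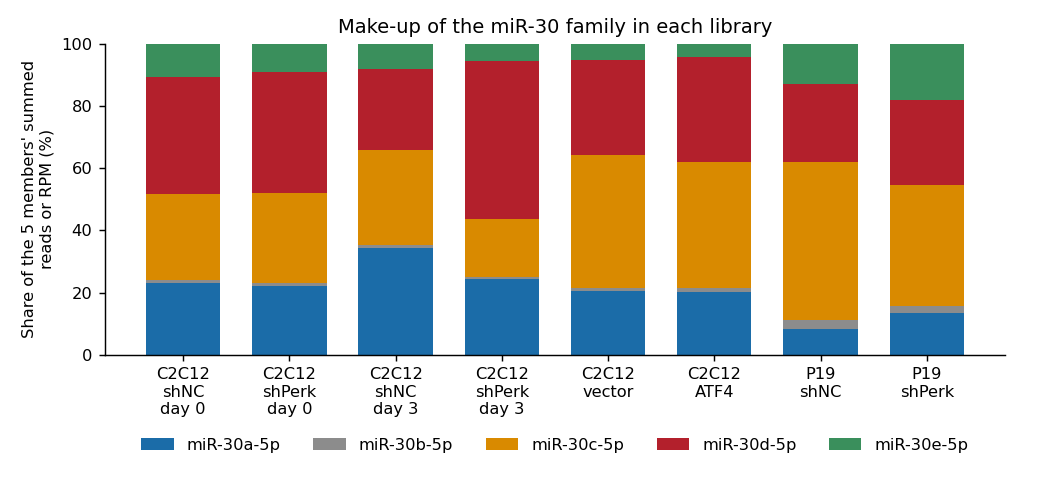
Share of each main arm in the summed reads or RPM of the 5 members (%, stacked bars, 1 bar per library). miR-30d-5p takes 50.6% in shPerk cells at day 3 against 26.4% in shNC cells at day 3, and miR-30c-5p is the largest share in the vector, ATF4 and P19 libraries.

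Fold changes were computed for miRNAs with at least 1 CPM or RPM in at least 1 of the 2 libraries compared, with the TMM scaling of edgeR. The call is a limit of size: a log2 fold change above 1 counts as higher and below -1 as lower. All 5 members were measured in all 6 comparisons.

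In shNC cells, day 3 against day 0, 1 member was called. miR-30a-5p was higher with a log2 fold change of 1.26 (1.25 to 1.28), or 2.40-fold. miR-30c-5p had a log2 fold change of 0.81 (0.80 to 0.83) and miR-30b-5p one of 0.66 (0.59 to 0.72). miR-30e-5p stood at 0.28 (0.25 to 0.30) and miR-30d-5p at 0.17 (0.15 to 0.18). Their median was 0.66, beside -0.04 over the 593 miRNAs measured, of which 29.0% were called in either direction and 12.5% higher. Among the 191 with a mean of at least 100 CPM, 18.8% were called and the median was 0.24. One call in 5 is near these shares. Scaling to the total of all miRNAs gave miR-30a-5p 0.997, which is no call, miR-30d-5p -0.10 and miR-30e-5p 0.01, with a median of all miRNAs of -0.30.

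Among the 3p arms of the same libraries, those of the chromosome 1 pair stood above the others. The reads of miR-30a-3p went from 5576 to 9285 and those of miR-30c-2-3p, its neighbour on chromosome 1, from 1152 to 1915. Both arms stood at a log2 fold change of 0.92 (0.87 to 0.97 for miR-30a-3p and 0.81 to 1.02 for miR-30c-2-3p). On chromosome 4, miR-30e-3p with 4212 and 3688 reads stood at -0.01 (-0.07 to 0.05), and miR-30c-1-3p with 201 and 134 reads at -0.40 (-0.73 to -0.08). On chromosome 15, miR-30d-3p had 314 and 274 reads, at -0.01 (-0.25 to 0.22), and miR-30b-3p had 964 and 583 reads, at -0.54 (-0.69 to -0.39). None of the 6 arms was called with the main settings. With no filter both chromosome 1 arms passed the limit, both at 1.01. The ratio of miR-30c-2-3p to miR-30c-1-3p, which no scaling affects, went from 5.73 at day 0 to 14.3 at day 3, a log2 change of 1.32 (0.99 to 1.65).

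**Figure D3:**
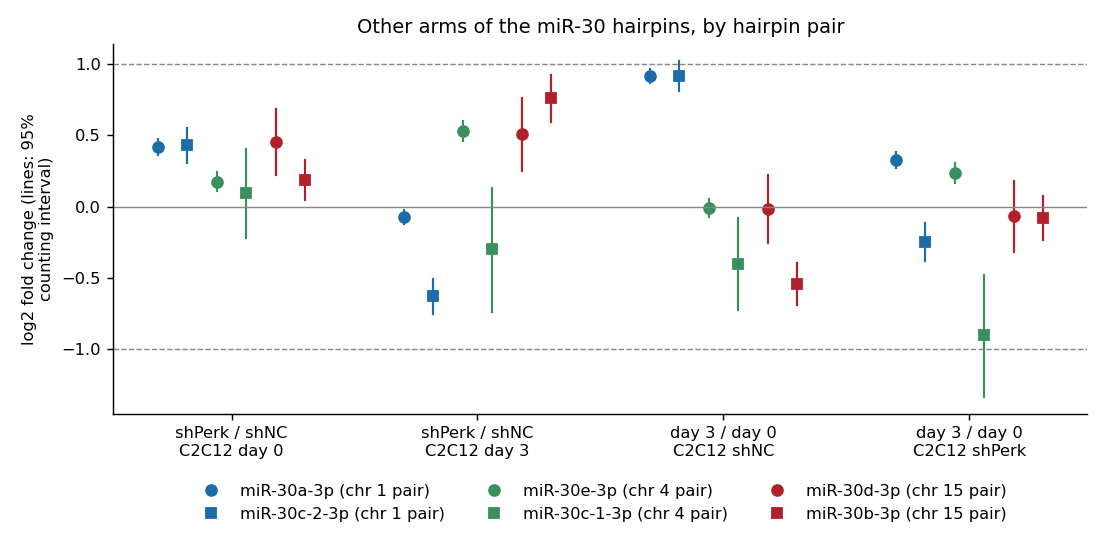
log2 fold change of the 6 other arms (points, coloured by hairpin pair, lines for the 95% counting interval) in the 4 comparisons of C2C12 hairpin libraries, with dashed lines at 1 and -1. Both chromosome 1 arms stand at 0.92 in shNC cells, day 3 against day 0, and the chromosome 4 and 15 arms at or below 0.

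Day 3 against day 0 in shPerk cells gave 0 called members, against 33.9% of the 573 miRNAs measured and 21.1% of the 180 with a mean of at least 100 CPM. miR-30d-5p had a log2 fold change of 0.87 (0.86 to 0.88) and miR-30a-5p one of 0.63 (0.61 to 0.64). miR-30b-5p stood at -0.08 (-0.17 to 0.01), miR-30c-5p at -0.14 (-0.15 to -0.12) and miR-30e-5p at -0.20 (-0.23 to -0.17). The members' median was -0.08, beside -0.05 over all miRNAs measured, which scaling to the total moved to -0.40. In this pair miR-30d-5p and miR-30a-5p stood above the other members, whereas miR-30a-5p and miR-30c-5p did so in shNC cells. The ratio of miR-30c-2-3p to miR-30c-1-3p was 7.23 at day 0 and 11.4 at day 3, a log2 change of 0.65 (0.22 to 1.09). miR-30c-1-3p, with 152 and 68 reads, stood at -0.90 (-1.34 to -0.48), and was past the limit with scaling to the total, at -1.26, and with upper quartile factors, at -1.02.

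PERK knockdown at day 0 gave 0 called members, against 35.9% of the 602 miRNAs measured and 26.8% of the 190 with a mean of at least 100 CPM. All 5 members had log2 fold changes above 0 with TMM scaling. The values were 0.47 for miR-30c-5p (0.46 to 0.48), 0.45 for miR-30d-5p (0.44 to 0.46), 0.35 for miR-30a-5p (0.33 to 0.36), 0.18 for miR-30e-5p (0.16 to 0.21) and 0.10 for miR-30b-5p (0.02 to 0.18), a range of 0.37. The members' median was 0.35, beside -0.06 over all miRNAs and 0.15 over the abundant ones. Of the 8 processing settings, 2 put miR-30b-5p below 0 and 1 put miR-30e-5p below 0. Scaling to the total moved the median of all miRNAs to -0.19. The 6 other arms lay between 0.09 (miR-30c-1-3p) and 0.45 (miR-30d-3p), none of them called.

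PERK knockdown at day 3 gave members' values of both signs. miR-30d-5p was called higher, with a log2 fold change of 1.26 (1.24 to 1.27) or 2.39-fold, and the 4 other members had values below 0 in each of the 8 settings. miR-30b-5p stood at -0.53 (-0.61 to -0.46), miR-30c-5p at -0.37 (-0.39 to -0.36), miR-30e-5p at -0.19 (-0.22 to -0.16) and miR-30a-5p at -0.18 (-0.19 to -0.17). Of the 575 miRNAs measured, 44.9% were called in either direction and 21.9% higher, and of the 182 abundant ones 40.1% were called, so 1 call in 5 is no more than the background. The members' median was -0.19, beside 0.01 over all miRNAs. The range from the lowest to the highest member was 1.79, against 0.37 at day 0. The lower and upper quartiles of all miRNAs measured were -0.87 and 0.86 at day 3, and -0.82 and 0.67 at day 0. Wide spread at day 3 was thus not particular to the members, and whether theirs differs from that of other miRNAs was not tested. With scaling to the total miRNA reads, miR-30d-5p had a log2 fold change of 0.92 and was not called, and the median of all miRNAs moved to -0.32.

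The ratios between members within a library did not depend on the scaling. The ratio of miR-30d-5p to miR-30a-5p was 1.64 in shNC cells and 1.76 in shPerk cells at day 0, 0.766 in shNC cells at day 3 and 2.07 in shPerk cells at day 3. Of these 4 ratios, that of shNC cells at day 3 was the one below 1. Between shPerk and shNC cells at day 3 it changed by 1.43 on the log2 scale (1.42 to 1.45), and at day 0 by 0.10 (0.08 to 0.12). With TMM scaling of each pair, miR-30d-5p had the larger knockdown value at day 3 than at day 0, by 0.81 (0.79 to 0.82). The 4 other members had the smaller one, by between -0.37 (miR-30e-5p) and -0.85 (miR-30c-5p). Unlike the ratios, these differences depend on the scaling, which their intervals do not cover. These intervals hold for the 4 libraries, and the same libraries enter the comparison of differentiation in shNC and shPerk cells. The summed level of the 4 muscle miRNAs was lower in shPerk cells at both days, with 88480 CPM (shNC) and 24312 CPM (shPerk) at day 3 and 19165 and 3839 CPM at day 0, while the ratio of miR-30d-5p to miR-30a-5p differed mainly at day 3. Their part in the members' values was not tested.

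**Figure D4:**
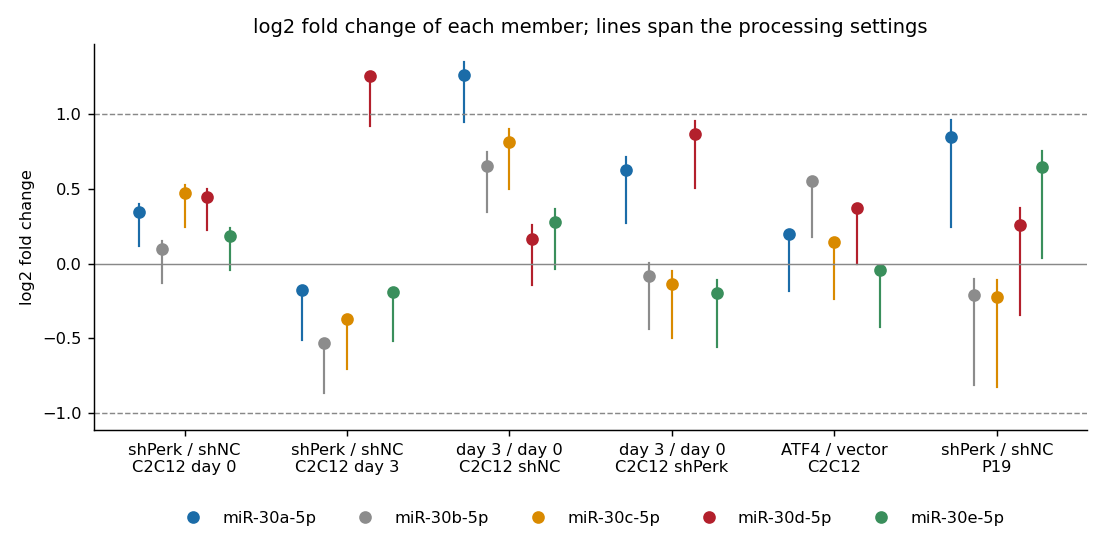
log2 fold change of each main arm (points, TMM scaling) in the 6 comparisons, with lines from the lowest to the highest value over the 8 processing settings (7 for the RPM tables) and dashed lines at the limits of 1 and -1. At day 3 miR-30d-5p stands at 1.26 and the 4 other members between -0.53 and -0.18 in shPerk against shNC cells.

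The arms of single miR-30 hairpins differed too. Arm ratios of hairpins outside the family were not compared, so these differences are not shown to be particular to miR-30. At day 3, the reads of miR-30b-3p were 583 (shNC) and 616 (shPerk), at a log2 fold change of 0.76 (0.59 to 0.93), whereas miR-30b-5p stood at -0.53. The ratio of the 5p to the 3p arm of Mir30b was 3.24 in shNC cells and 3.05 in shPerk cells at day 0, 7.45 in shNC cells and 3.04 in shPerk cells at day 3. The day 3 shNC library stood apart from the other 3 in this ratio, and its log2 difference from shPerk cells at day 3 was -1.29 (-1.47 to -1.11).

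For Mir30e the ratio was 7.20 and 7.23 at day 0 in shNC and shPerk cells, and 8.77 and 5.34 at day 3, a log2 difference of -0.72 (-0.79 to -0.64) between shPerk and shNC cells at day 3. For Mir30d it was 347 and 345 at day 0 and 393 and 660 at day 3, a log2 difference of 0.75 (0.499 to 0.998). The reads of miR-30d-3p itself were 274 (shNC) and 243 (shPerk) at day 3, or 0.51 as a log2 fold change (0.25 to 0.76). The ratio of Mir30a was 11.9 and 11.4 at day 0 and 15.1 and 14.04 at day 3, and that of miR-30c-5p to its summed 3p arms 59.1 and 62.7 at day 0 and 60.4 and 70.8 at day 3. At day 0 the log2 difference between shPerk and shNC cells in these 5 ratios lay between -0.09 and 0.09.

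On chromosome 1, the day 3 reads of miR-30c-2-3p were 1915 (shNC) and 773 (shPerk), at a log2 fold change of -0.63 (-0.75 to -0.51), and those of miR-30a-3p 9285 and 5519, at -0.07 (-0.12 to -0.02). miR-30e-3p stood at 0.53 (0.46 to 0.60) with 3688 and 3321 reads, and miR-30c-1-3p at -0.30 (-0.74 to 0.13) with 134 and 68 reads. None of these arms was called, and neighbours in the chromosome 1 pair and in the chromosome 4 pair had different values at day 3. In the chromosome 15 pair, miR-30b-3p at 0.76 (0.59 to 0.93) and miR-30d-3p at 0.51 (0.25 to 0.76) had overlapping intervals. The intervals do not cover the scaling. With scaling to the total, miR-30b-3p stood at 0.43, miR-30d-3p at 0.17 and miR-30e-3p at 0.20. Under that scaling miR-30a-3p was at -0.40, miR-30c-1-3p at -0.63 and miR-30c-2-3p at -0.96.

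**Figure D5:**
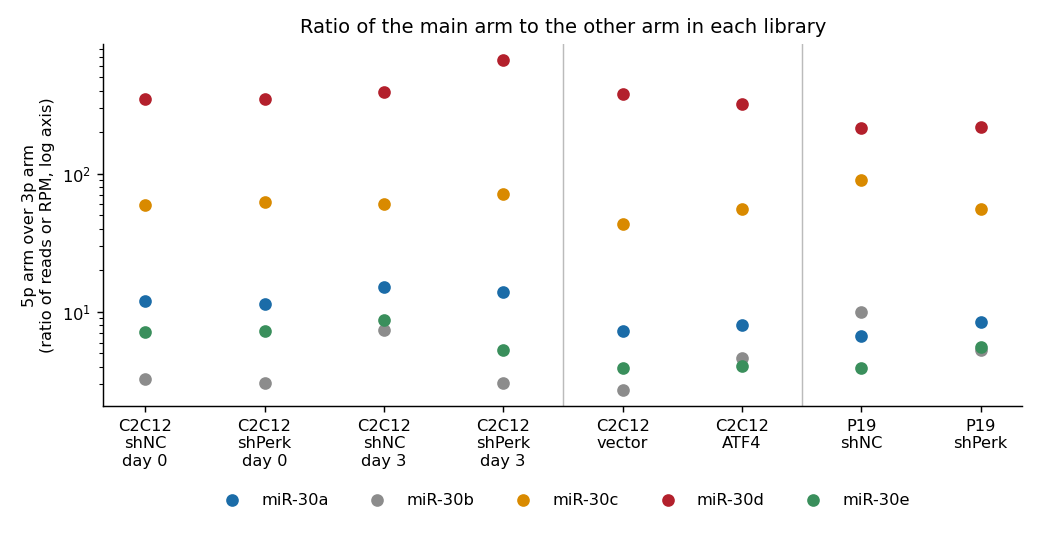
Ratio of the 5p arm to the 3p arm (points, reads or RPM, log axis) for the hairpins of each member in the 8 libraries, with both 3p arms summed for miR-30c. Mir30b stands at 7.45 in shNC cells at day 3 and between 3.04 and 3.24 in the other 3 C2C12 hairpin libraries, and Mir30d at 660 in shPerk cells at day 3.

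ATF4 overexpression gave 0 called members, against 23.5% of the 605 miRNAs measured and 15.3% of the 189 with a mean of at least 100 RPM. The log2 fold changes were 0.55 for miR-30b-5p, 0.37 for miR-30d-5p, 0.20 for miR-30a-5p, 0.14 for miR-30c-5p and -0.04 for miR-30e-5p, and their median was 0.20 beside 0.00 over all miRNAs. With upper quartile factors, which lower the median of all miRNAs to -0.38, miR-30a-5p, miR-30c-5p and miR-30d-5p were also below 0. miR-30b-5p was above 0 in all 7 settings. The other arm of its hairpin, miR-30b-3p, stood at 111.7 RPM in vector cells and 91.6 RPM in ATF4 cells, or -0.22, so the ratio of 5p to 3p was 2.73 in vector cells and 4.67 in ATF4 cells. miR-30d-3p, at 24.0 RPM in vector cells and 35.3 RPM in ATF4 cells, had the highest value of the 6 other arms, 0.62.

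In P19 cells, PERK knockdown gave 0 called members, against 35.3% of the 696 miRNAs measured and 36.8% of the 272 with a mean of at least 100 RPM. miR-30a-5p had a log2 fold change of 0.85, miR-30e-5p of 0.64, miR-30d-5p of 0.26, miR-30b-5p of -0.21 and miR-30c-5p of -0.23, with a median of 0.26 beside -0.04 over all miRNAs. The scaling mattered most in this pair. The 6 embryonic-stem-cell miRNAs together had 172116 RPM in shNC cells and 403102 RPM in shPerk cells, and with scaling to the total the median of all miRNAs was -0.65. Under that scaling miR-30d-5p was at -0.34 and the family sum at -0.45, whereas miR-30a-5p and miR-30e-5p were above 0 and miR-30b-5p and miR-30c-5p below 0 in all 7 settings. The part of the embryonic-stem-cell miRNAs in the members' values was not tested.

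Free of scaling, the ratio of miR-30d-5p to miR-30a-5p was 3.06 in P19 shNC cells and 2.03 in P19 shPerk cells, a log2 change of -0.59, and that of miR-30a-5p to miR-30c-5p was 0.162 and 0.341. The 5p to 3p ratio of Mir30b was 9.99 in shNC cells and 5.27 in shPerk cells, a log2 change of -0.92, beside -1.29 in C2C12 cells at day 3 and -0.09 at day 0. miR-30c-2-3p stood at 1.64 times miR-30c-1-3p in P19 shNC cells and 1.97 times in P19 shPerk cells, below the ratio in each of the 6 C2C12 libraries, where it lay between 5.73 and 14.3.

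miR-384-5p, found with the same seed but not among the 5 members, was at or near 0 reads in C2C12 hairpin libraries. The shNC libraries held 8 reads (day 0) and 1 read (day 3) of it. The shPerk libraries held 0 reads at both days, which allows up to 0.341 and 0.318 CPM at 3 reads per library, for counting error only. It is not listed in the ATF4 table. P19 shNC cells had 31.5 RPM of it and P19 shPerk cells 20.0 RPM, far below any main arm of the family.

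Outside the family, 109 miRNAs averaged 100 CPM or RPM or more in each of the 5 deposited pairs. Among them, those with log2 fold changes most like the family sum over these 5 comparisons were miR-22-3p, with a root mean square difference of 0.18, miR-196a-5p with 0.22 and let-7f-5p with 0.25. The sum itself had log2 fold changes of 0.40 and 0.31 on PERK knockdown at day 0 and day 3, 0.68 from day 0 to day 3 in shNC cells, 0.22 with ATF4 and 0.15 in P19 cells. The members, which make up the sum, differed from it by between 0.36 for miR-30c-5p and 0.49 for miR-30d-5p. Between 7 and 19 of the 109 miRNAs were nearer to the sum than a member was, and the rest were farther. The 3 named above were picked as the nearest, so a comparison of the members with them has no weight. Of the 5 comparisons, 3 share libraries of C2C12 shNC cells, and the sum is weighted toward its abundant members.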

How the data were processed

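Small RNA libraries of 8 mouse cell line samples, 1 per condition, were read from 5 deposited tables. Per the methods, a company ligated linkers to both RNA ends, amplified and gel-selected the product, and annotated reads with bowtie. The genome build in the submitters' processing notes is mm10 (GRCm38). The aligner version and miRNA release are not given in the sources used here. Raw counts of reads per mature miRNA were deposited by the authors for the C2C12 hairpin libraries. Those of shNC cells at day 0 and day 3 are each in more than 1 table, and 0 of 1978 values differed between copies. For the ATF4 and P19 pairs the authors deposited RPM, with values under 1 RPM listed at 0. Their depth was read from the steps of values below 30 RPM, of which between 96.0% and 100% were whole reads within 0.1 reads. The RPM values were not turned into reads. The fold changes, p-values and q-values of the authors' own comparisons were not used.

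Members, lists and comparisons were chosen with earlier results of these data known. The genes named are the 5 members, the 6 other arms of their hairpins, any mature miRNA with the same seed, the 3 miRNAs nearest in pattern to the family sum and the most abundant miRNAs. Fold changes used TMM factors of edgeR 4.0.16 in R 4.3.3 over the miRNAs of each pair that reached 1 CPM or RPM in 1 library, a prior count of 0.125 for counts, and 1 RPM in place of values listed at 0. Intervals are 95% Clopper-Pearson intervals from the reads, and those of ratio changes are delta-method intervals. RPM values have none. The RPM tables hold no counts, so the count intervals could not be made there. Alternatives were scaling to total counts, the median of ratios of DESeq2 1.42.0, upper quartile factors, no filter, a filter at an average of 100 CPM or RPM, a prior count of 2, TMM factors over 4 libraries and a pseudocount of 1 RPM. The scripts, in Python 3.11.15 with numpy 2.4.6, pandas 2.3.3 and scipy 1.17.1, were tested on simulated data. Sequences are from RefSeq (GRCm38.p6), where 3 of 5 members and 4 of 6 other arms matched, and positions from GENCODE M21.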

Additional observations from a re-analysis of the deposited data

Results flagged for a closer look

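For 6 differences between effects, the members' values pointed in opposite directions in 2 groups and in every processing setting, with 1 library per condition. None of these differences was tested. In C2C12 cells the effect of PERK knockdown on miR-30a-5p was 0.35 at day 0 and -0.18 at day 3 on the log2 scale, a difference of -0.53, and that on miR-30c-5p was 0.47 and -0.37, a difference of -0.85. From day 0 to day 3, miR-30c-5p had a log2 fold change of 0.81 in shNC cells and -0.14 in shPerk cells, a difference of -0.95, which rests on the same 4 libraries. Set against C2C12 cells at day 3, the knockdown in P19 cells gave miR-30a-5p 0.85 instead of -0.18, a difference of 1.03, and miR-30e-5p 0.64 instead of -0.19, a difference of 0.83. miR-30c-5p had -0.23 in P19 cells and 0.47 in C2C12 cells at day 0, a difference of -0.70. The P19 and C2C12 values come from tables in different units.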

How the results depend on the processing

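No paired analysis was possible because each condition has 1 library. Nothing here separates a condition from its library, and leaving out a library leaves no comparison. For the family sum, the log2 fold changes with TMM scaling were 0.40 and 0.31 for PERK knockdown at day 0 and day 3, 0.68 and 0.49 for day 3 against day 0 in shNC and shPerk cells, 0.22 for ATF4 and 0.15 for P19 cells. In that order, scaling to the total gave 0.27, -0.019, 0.42, 0.13 and, for P19, -0.45. Upper quartile factors gave 0.38, 0.21, 0.57, 0.37, -0.15 and 0.013. The filter at a mean of 100 CPM or RPM gave 0.18, 0.14, 0.37, 0.34, 0.093 and 0.26. No filter gave 0.43, 0.25, 0.78 and 0.58 for the count tables. The median of ratios gave 0.46 at day 0, 0.72 in shNC and 0.53 in shPerk cells, and TMM factors over 4 libraries gave 0.28 for knockdown at day 3 and 0.56 for shPerk cells. The sum was not called in any setting, and its sign turned at day 3 with total scaling, with ATF4 under upper quartile factors and in P19 cells with total scaling. The called member count of 1 became 0 with total scaling for knockdown at day 3 and for shNC differentiation, where the 100 CPM filter also gave 0. Over all miRNAs, 216, 258, 172 and 194 of the count tables were called, 588, 627, 556 and 511 with no filter, which adds miRNAs of few reads, and 54, 76, 37 and 34 with the 100 CPM filter, which leaves fewer miRNAs. For ATF4 and P19, 142 and 246 were called with the main settings and 33 and 102 with that filter. The scaling was recomputed under the filter, so its counts are not those behind the shares of abundant miRNAs given with each comparison. Scaling to the total also moved the split of called miRNAs, higher against lower, from 126 and 132 to 93 and 166 for knockdown at day 3, from 74 and 98 to 51 and 140 in shNC and from 97 and 97 to 58 and 161 in shPerk differentiation, and from 123 and 123 to 46 and 247 in P19 cells. Upper quartile factors moved it from 88 and 54 to 53 and 124 with ATF4. Depth limits the 3p arms most: the widest counting interval of a fold change, that of miR-30c-1-3p for knockdown at day 3, with 134 and 68 reads, ran from -0.74 to 0.13.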
